A study of Mus musculus with 4 samples.

Results

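Lfng and 9 other genes of the Notch pathway were followed in brown adipose tissue (BAT) after activation of the integrated stress response (ISR). The 10 genes were Lfng, Mfng, Rfng, Notch1, Notch2, Notch4, Dll4, Jag1, Hes1 and Hey1, out of 20145 genes named on the array, and all 10 were measured. They were chosen from the same contrast that is described here, because Lfng was known to be much lower after AP. Their values are therefore a description without a test, and the difference of Lfng supports nothing beyond itself. Each value is the log2 signal of a probe relative to the 75th percentile of its array, so a value of 0 lies at that percentile and a difference of 1 is a 2-fold change.

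The mice were male transgenic (Tg) animals of 8 weeks carrying maP2::Fv2E-PERK, established in the C57/BL6N strain. Fv2E-PERK joins the eIF2α kinase domain of PERK to an artificial dimerization domain, so the synthetic ligand AP20187 (AP) turns on the ISR without another stress. A fragment of the mouse aP2 (Fabp4) promoter drives it in white and brown adipose tissue, and according to the study's text the promoter also works in monocytes and macrophages. BAT of 2 vehicle-treated and 2 AP-treated mice was taken 12 h after an intraperitoneal injection. The dose of AP was 1 ng per g in the sample labels and 0.05 mg per kg in the legend of the experiment, and the vehicle was ethanol, PEG-400 and Tween-20 in water. The controls carried the transgene as well, and mice without it were not analysed here.

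Notch receptors pass a signal between neighbouring cells. A Delta or Jagged ligand on one cell pulls on the receptor of another, proteases release the intracellular domain of the receptor, and this domain joins RBPJ and Mastermind in the nucleus to turn on repressors of the Hes and Hey families. The fringe enzymes Lfng, Mfng and Rfng act earlier, in the Golgi, where they lengthen an O-fucose sugar on the receptor and thereby shift its response between Delta and Jagged ligands. In adipose tissue the pathway is known to pattern blood vessels and to restrain thermogenic adipocytes.

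Between 46.4% and 49% of the spots were well above background, 0 spots were saturated, and the 75th percentile of the signal was 118 to 159. Over the 24973 probes that passed the filter on dim probes, the vehicle pair correlated with an r of 0.972 and the AP pair with 0.981. All 11 brown adipocyte markers were well above background, with Ucp1, the uncoupling protein of thermogenesis, at 9.66 to 10.41. Trib3, a pseudokinase induced by the ISR, was at 2.78 and 2.33 in the vehicle mice against 6.26 and 8.01 in the AP mice, and Ddit3, a transcription factor of the ISR, was at 2.18 and 1.86 against 3.03 and 4.22. Each array lay at its own position on 1 slide, and no position held both groups, so position and treatment cannot be told apart. Over 24973 probes, limma called 0 at an adjusted p of 0.05, which is 0%, with 0.80 as the lowest adjusted p. Unadjusted, 1515 probes were under 0.05, and by the methods' t-test 1478 were under 0.05 and 0 passed after adjustment. With 2 mice per group the smallest two-sided exact permutation p is 0.333, so a single gene cannot reach significance in that test.

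Lfng, the enzyme of lunatic fringe, was lower in both AP-treated mice than in both vehicle-treated mice. Its log2 level was 0.96 and -0.15 in the vehicle mice against -2.12 and -1.9 in the AP mice. The groups were separated by 1.74, and the vehicle mice were further apart (SD 0.79) than the AP mice (SD 0.16). The mean changed from 0.4 to -2.01, a log2 fold change of -2.41 (SE 0.42, n = 2 per group) or a 5.32-fold lower signal. Ranked by log2 fold change from the most negative, Lfng stood at place 13 of 12791 genes, and at place 5 of the 12138 genes that were well above background on all 4 arrays. In the BAT as a whole, fewer cells that express a gene and less RNA per cell cannot be told apart.

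A single probe, A_52_P187940, measured Lfng, and it was well above background on all 4 arrays. The processed signal was 231 and 143 in the vehicle mice against 29.4 and 31.9 in the AP mice. Before background subtraction the median brightness of the spot was 249 and 168 against 56 and 58, over a local background of 18 to 19. The AP spots were thus dim but stood clear of their surroundings. With the normexp background correction, which adds an offset and compresses dim signals, the log2 fold change was -1.28, and the direction was the same.

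The other fringe enzymes differed less between the groups than Lfng did. Mfng, the enzyme of manic fringe, was at 3.46 and 2.98 in the vehicle mice against 2.83 and 3.09 in the AP mice by its brighter probe, so the groups overlapped (log2 fold change -0.26, SE 0.27). The other probe of Mfng read 3.23 and 2.83 against 2.5 and 2.62 (log2 fold change -0.47, SE 0.24), and there both AP mice were below both vehicle mice by 0.21. The probes of Mfng thus disagreed on whether the groups overlap and agreed on the sign. Rfng, the enzyme of radical fringe, was at 4.23 and 4.2 in the vehicle mice against 4.26 and 4.12 in the AP mice (log2 fold change -0.028, SE 0.2). Its second, dimmer probe gave 0.083 (SE 0.24), and the groups overlapped in both probes.

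A sequence window at the start of Lfng is shown beside that of Rfng because these fringe genes differed most in their change. Both are the 250 bases before the start listed in RefSeq promoter entries (GRCm38.p6), held for 7 of the 10 genes. Mfng, Hes1 and Hey1 were not listed. By the RefSeq gene coordinates the Lfng window ends just before the gene, which begins at chr5:140607341. Rfng begins at chr11:120784251 on the minus strand, so the end of its window lies inside the gene. The Notch4 window also reaches into its gene. Capitals mark the letters TGGGAA, the core of the site bound by RBPJ. This and the other motifs were searched on both strands. The Lfng sequence lies on the plus strand at chr5:140607091-140607340 and the Rfng sequence on the minus strand at chr11:120784205-120784454, each written 5′ to 3′.
Lfng: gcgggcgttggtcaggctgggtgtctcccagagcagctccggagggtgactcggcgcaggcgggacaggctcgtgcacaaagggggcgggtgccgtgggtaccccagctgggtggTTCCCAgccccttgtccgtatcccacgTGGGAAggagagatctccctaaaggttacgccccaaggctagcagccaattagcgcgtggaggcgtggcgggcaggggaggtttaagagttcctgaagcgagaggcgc
Rfng: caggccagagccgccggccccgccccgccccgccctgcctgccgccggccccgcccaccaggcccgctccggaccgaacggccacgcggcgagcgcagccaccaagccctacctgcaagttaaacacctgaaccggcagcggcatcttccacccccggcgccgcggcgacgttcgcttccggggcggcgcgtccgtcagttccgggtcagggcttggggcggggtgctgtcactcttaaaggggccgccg
The Lfng window held 2 matches, which begin 135 bases (minus strand) and 108 bases (plus strand) before the gene start. The windows of Rfng, Notch1, Notch2, Notch4, Dll4 and Jag1 held 0, and 21.6% of all 32851 windows of this length held at least 1. The letters TGATGNAAT of the composite element for ATF4 and C/EBP, transcription factors of the ISR, were in 0.816% of all windows and in 0 of the 7. The letters CACNAG of the N-box, which HES repressors bind, were in 36.7% of all windows and in those of Lfng, Rfng, Notch1, Notch2 and Dll4. In the Lfng window the N-box match begins 181 bases before the gene start and does not overlap the RBPJ cores. These matches describe the letters and not sites in use.

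The receptors showed no common shift. Notch1, a receptor used in vessels and many other tissues, was at -1.76 and -2.05 in the vehicle mice against -2.46 and -1.55 in the AP mice (log2 fold change -0.099, SE 0.37). Both extremes of Notch1 were in the AP group. Notch2, a receptor that also acts in smooth muscle, was at 2.08 and 1.26 against 1.45 and 1.9 (log2 fold change 0.0066, SE 0.37), so the AP mice lay between the vehicle mice. Notch4, the receptor best known from endothelium, was at 1.43 and 1.98 against 1.2 and 1.47 (log2 fold change -0.37, SE 0.28), and the groups overlapped by 0.04. Notch1 and Notch2 each had a second probe, which was not well above background on any array.

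Of the ligands, Dll4, which guides the sprouting of vessels, was at -1.09 and -0.84 in the vehicle mice against -2.22 and -0.46 in the AP mice (log2 fold change -0.37, SE 0.62). The AP mice enclosed the vehicle mice. Jag1, a ligand of the Jagged class, was at 1.41 and 0.84 in the vehicle mice against 1.05 and 1.46 in the AP mice, with a log2 fold change of 0.13 (SE 0.31).

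Hes1 and Hey1, the repressors that Notch signalling turns on, did not separate the groups either. Hes1 was at -2.08 and -1.31 in the vehicle mice against -3.53 and -1.14 in the AP mice (log2 fold change -0.64, SE 0.85). Its highest and lowest values were both in AP mice, and in AP mouse 1 it was not well above background. Hey1 was at 0.92 and 0.64 against 0.71 and 0.23, with a log2 fold change of -0.3 (SE 0.27). The AP mouse lowest for Hes1 was not the one lowest for Hey1.

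**Figure D1:**
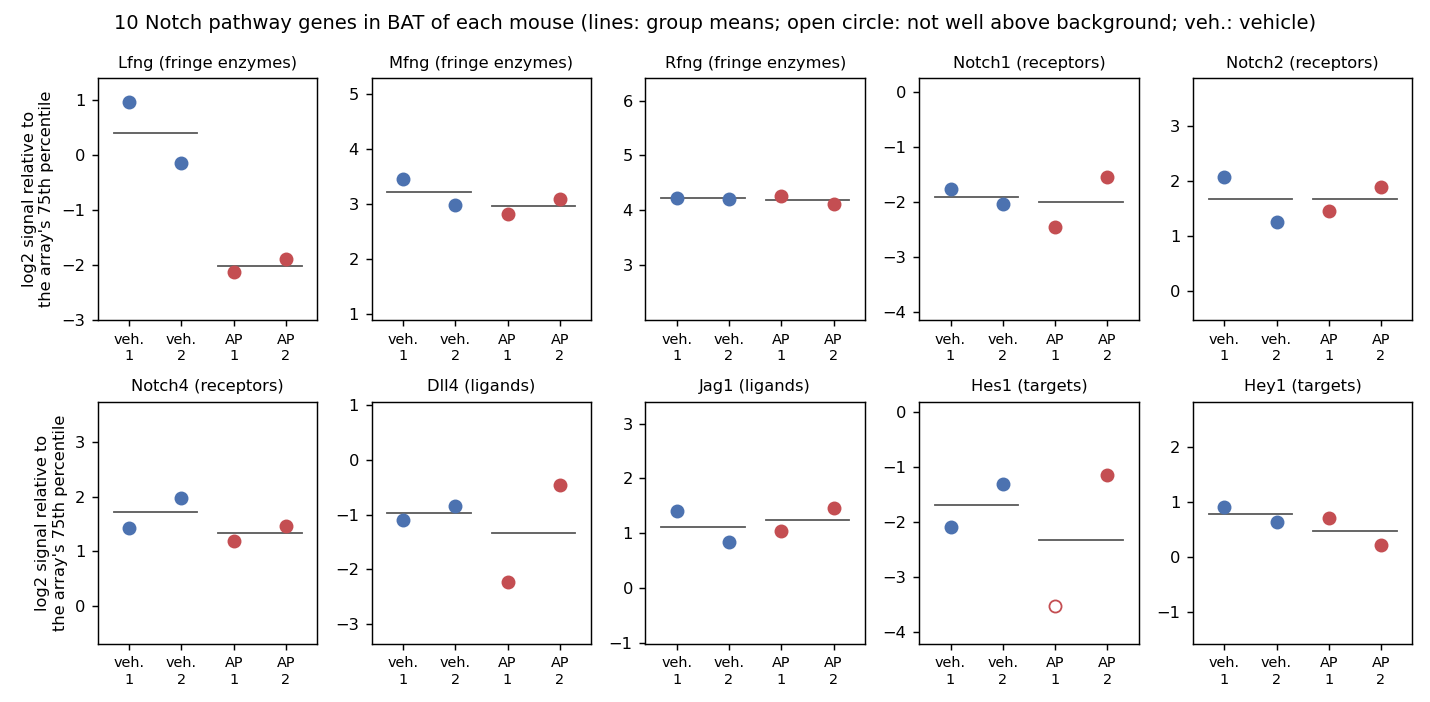
The log2 signal of each of the 10 genes relative to the 75th percentile of its array is plotted for each mouse, with vehicle in blue, AP in red, lines at the group means and every vertical axis spanning the same range. Both AP mice lie 1.74 or more below both vehicle mice for Lfng, the groups overlap for the other 9, and the open circle marks Hes1 in AP mouse 1, not well above background.

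Among the 10 genes, 8 had a lower mean and 2 a higher mean in the AP group, with a median log2 fold change of -0.28, beside 0.011 over all 12791 genes. In 1 of the 10, Lfng, both AP mice were below both vehicle mice, as in 17.3% of all genes. In 0 of the 10 both were above, as in 20.1% of all genes. Nothing is read from these counts, since the contrast chose the genes. Without Lfng the median of the remaining 9 was -0.26, with 7 lower and 2 higher, and their log2 fold changes ran from -0.64 to 0.13.

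AP mouse 1 held the lowest value of 6 of the 10 genes, namely Lfng, Mfng, Notch1, Notch4, Dll4 and Hes1, and the lowest value of 24.2% of all genes. Hes1 and Dll4 depended on this mouse for their sign, with log2 fold changes of 0.56 and 0.5 without it and of -1.83 and -1.25 without AP mouse 2. Lfng gave -2.3 without AP mouse 1 and -2.52 without AP mouse 2. Nrarp, a target that dampens the Notch signal and was singled out after its values were seen, had a similar profile. It was at -2.01 and -1.65 in the vehicle mice against -3.58 and -1.67 in the AP mice, and it was not well above background in AP mouse 1. Its log2 fold change was -0.8 (SE 0.67) with all mice and 0.15 without AP mouse 1. Vehicle mouse 1 gave the highest Lfng value, and without it the log2 fold change of Lfng was -1.85, against -2.97 without vehicle mouse 2.

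A fixed list of 66 other Notch pathway genes placed these values in the wider pathway. Of these, 63 were on the array and 56 passed the filter on dim probes. By limma, 0 of the 56 changed at an adjusted p of 0.05, and 4 (7.14%) had an unadjusted p under 0.05, beside 6.04% of all genes. All 4 were higher in the AP group, and which genes were under 0.05 changed when a vehicle mouse was left out: Ccnd1, Dll1 and Gxylt2 without mouse 1, with Ccnd1 and Dll1 lower, and Myc, higher, without mouse 2. Of the 56, 28 had a higher and 28 a lower mean, and the median log2 fold change was -0.0077. Both AP mice were above both vehicle mice for 11 of the 56, beside 20.1% of all genes, and below them for 11, beside 17.3% of all genes.

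Gxylt2, which adds xylose to O-glucose on Notch receptors, was at 4.86 and 4.67 in the vehicle mice against 6.24 and 5.56 in the AP mice. The groups did not overlap, and the log2 fold change was 1.14 (SE 0.3, limma unadjusted p = 0.0159, adjusted p = 0.80). The other 5 sugar transferases, among them Pofut1, which adds the O-fucose that fringe enzymes extend, overlapped between the groups and ran from -0.11 to 0.34. Neurl1b, an E3 ligase of the Neuralized family that promotes uptake of ligands, was at 6.94 and 6.85 against 8.35 and 7.68. Its log2 fold change was 1.13 (SE 0.3, limma unadjusted p = 0.0154, adjusted p = 0.80). The direction of Gxylt2 and Neurl1b thus was opposite to that of Lfng, and each had a second probe that was not well above background on any array.

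The other low p values belonged to genes listed as nuclear repressors. Tle3, a corepressor of the Groucho family, was at 3.17 and 3.12 in the vehicle mice against 3.82 and 3.85 in the AP mice (log2 fold change 0.69, SE 0.2, limma unadjusted p = 0.0207, adjusted p = 0.80). Cir1, a corepressor that binds RBPJ, was at 0.42 and 0.47 against 1.23 and 0.95 (log2 fold change 0.64, SE 0.22, limma unadjusted p = 0.0363, adjusted p = 0.80). A second probe of Cir1, well above background on all 4 arrays, gave -0.049, so the probes disagreed. Rbpj itself, the DNA-binding partner of the receptor, had a log2 fold change of 0.27 (SE 0.25). Of the 9 nuclear activators 6 had a higher and 3 a lower mean, and of the 11 nuclear repressors 6 a higher and 5 a lower mean.

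Among the 56 other measured genes, the most positive and the most negative log2 fold change belonged to targets, and each rested on 1 vehicle mouse. The target Hes5, lower in both AP mice (log2 fold change -1.46), was well above background on 1 array only and failed the filter. Ccnd1, which encodes the cell cycle regulator cyclin D1, was at 0.32 and 3.29 in the vehicle mice against 0.3 and 0.58 in the AP mice, so vehicle mouse 2 alone was high. Its log2 fold change was -1.36 (SE 1.01) and was 0.12 without that mouse. Myc, a growth-promoting transcription factor, was at -2.96 and -0.39 against -0.33 and -0.53, so vehicle mouse 1 alone was low. Its log2 fold change was 1.24 (SE 0.87) and was -0.04 without that mouse. The ligands Jag2 and Dll1 had the next most negative values among genes well above background on all 4 arrays, with log2 fold changes of -0.43 (SE 0.31) and -0.42 (SE 0.47). Both moved with the vehicle mice: without vehicle mouse 2 Jag2 gave -0.13 and Dll1 0.22, without vehicle mouse 1 they gave -0.74 and -1.06, and the groups overlapped for both ligands.

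Notch3, the receptor of mural cells, was at 2.36 and 2.55 in the vehicle mice against 2.25 and 2.28 in the AP mice (log2 fold change -0.19, SE 0.21). Both AP mice were below both vehicle mice by 0.077. The 7 measured genes of receptor cleavage, which include the proteases Adam10 and Adam17, ran from -0.32 to 0.28. The 12 genes of ligand and receptor trafficking and turnover ran from -0.39 to 1.13, and Neurl1b was at the upper end. Of the 7 measured targets, 0 had an unadjusted limma p under 0.05, beside 6.04% of all genes. In 1 of the 7, Hes7, both AP mice were below both vehicle mice (log2 fold change -0.4, SE 0.21), as in 17.3% of all genes. The groups overlapped for the other 6.

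**Figure D2:**
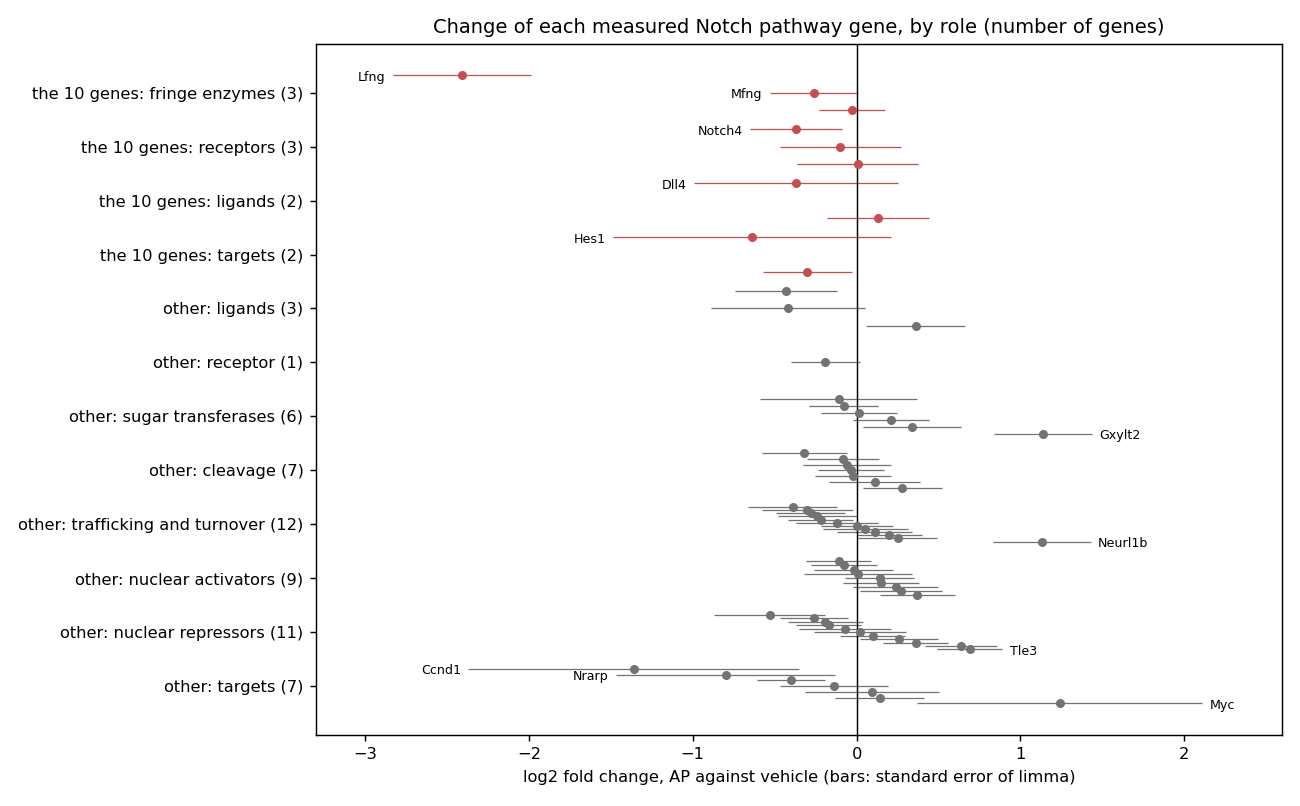
The horizontal axis gives the log2 fold change of AP against vehicle with the standard error of limma as a bar, and each row is a role, with the 10 genes in red and the 56 other measured pathway genes in grey. Lfng lies at -2.41, to the left of every other gene, while Gxylt2 and Neurl1b lie at 1.14 and 1.13 with short bars and Ccnd1 and Myc have wide bars.

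The genes whose profile over the 4 mice was most like that of Lfng were no Notch pathway genes. Likeness was the Euclidean distance between log2 profiles, each centred on its own mean, over 4 arrays and 12137 genes well above background on all of them. The nearest were Tubb2a, a beta tubulin (distance 0.71), E2f2, a transcription factor of the cell cycle (0.92), Cib4 (0.92), Tubb2a-ps2 (0.96) and Chst12, a sulfotransferase of the Golgi that acts on chondroitin (1.11). E2f2 was at 2.52 and 2.48 in the vehicle mice against -0.47 and -0.35 in the AP mice. Tubb2a-ps2 is a pseudogene copy of Tubb2a, and their probes may read each other's transcripts, so both are uncertain. The nearest of the 10 genes was Mfng at a distance of 2.2, place 1232, and the median distance of all genes was 2.58. The distance depends on the size of a change, so genes with small changes could not come close to Lfng whatever their pattern. Nothing about the pathway is read from these places. Hes1, dim on 1 array, was not part of this comparison.

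Cell type markers differed between the mice, and their summed level, in multiples of the 75th percentile of the array, is set here beside Lfng. Lymphocyte markers summed to 28.1 and 95 in the vehicle mice against 33.9 and 31.9 in the AP mice, and all 7 measured members were highest in vehicle mouse 2. Their median log2 fold change was -0.66, and 0.28 without that mouse. The sum was mostly H2-Ab1, at 4.13 and 5.85 against 4.39 and 4.31, and Cd74, at 2.95 and 4.96 against 3.35 and 3.12. These are MHC class II genes, so the sum is not a measure of lymphocytes alone. Of the T cell markers, Cd3e was at 1.19 and 1.53 against 1.05 and 1.27, and Lck at -2.18 and -0.43 against -2.2 and -1.69. Of the B cell markers, Cd79a was not well above background on any array, while Cd79b was well above it on all 4, at -3.11 and -0.53 against -2.68 and -2.28. Skeletal muscle markers summed to 55.1 and 1020 against 661 and 366, and all 10 were highest in vehicle mouse 2. Their median log2 fold change was 0.91, with -1.26 without vehicle mouse 1 and 3.1 without vehicle mouse 2. The part of lymphocytes and muscle in the difference of Lfng was not tested.

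Endothelial markers, which mark the cells where Dll4 and Notch4 are best known, summed to 131 and 177 in the vehicle mice against 128 and 170 in the AP mice, with a median log2 fold change of -0.05 over 12 genes. Pecam1, the endothelial adhesion molecule, was at 0.5 and 0.54 against 0.83 and 0.48. Mural markers summed to 72.3 and 72.1 against 69.5 and 65.3. The endothelial sums overlapped between the groups, and the mural sums were slightly lower in both AP mice.

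Brown adipocyte markers summed to 8840 and 5830 in the vehicle mice against 7190 and 8110 in the AP mice. Their median log2 fold change was 0.094 over 11 genes. Elovl3 differed widely between the vehicle mice (6.08 and -1.07), and Dio2 between the AP mice (-1.78 and 3.33). The macrophage, white adipose and erythroid lists had lower medians after AP, and these rested in part on single vehicle mice. Macrophage markers summed to 37 and 47 in the vehicle mice against 29.8 and 28.2 in the AP mice, and all 8 had a lower mean, with a median log2 fold change of -0.43. In vehicle mouse 2 were the highest values of 6 of the 8, and without it the median was -0.042. Only 1 of the 8, Itgam, was lower in both AP mice than in both vehicle mice, as were 17.3% of all genes. The groups overlapped for the other 7. Itgam was at 4.21 and 3.82 against 2.85 and 3.42 (log2 fold change -0.88, SE 0.3), and the separation of the sums rested on it. White adipose markers summed to 47.1 and 54.5 against 33.5 and 37.6, a sum that was mostly Retn, the resistin gene, at 5.5 and 5.4 against 4.98 and 5.16. Lep, the leptin gene, was at 0.04 and 1.45 against -0.63 and -0.63. Nnat overlapped between the groups, at -0.4 and 3.23 against 0.19 and -0.1. Agt had the opposite sign (log2 fold change 0.75) and overlapped too, and Hoxc8, Hoxc9 and Tcf21 were not well above background on any array. The median of the 4 measured white adipose markers was -0.87, and -0.21 without vehicle mouse 2. Erythroid markers summed to 2390 and 1490 against 1270 and 1720, and all 5 were highest in vehicle mouse 1, the mouse with the highest Lfng. Their median was -0.38, and 0.053 without that mouse. The part of brown adipocytes, macrophages, white adipose cells and red cells in the difference of Lfng was not tested. Without vehicle mouse 1 the log2 fold change of Lfng was -1.85.

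**Figure D3:**
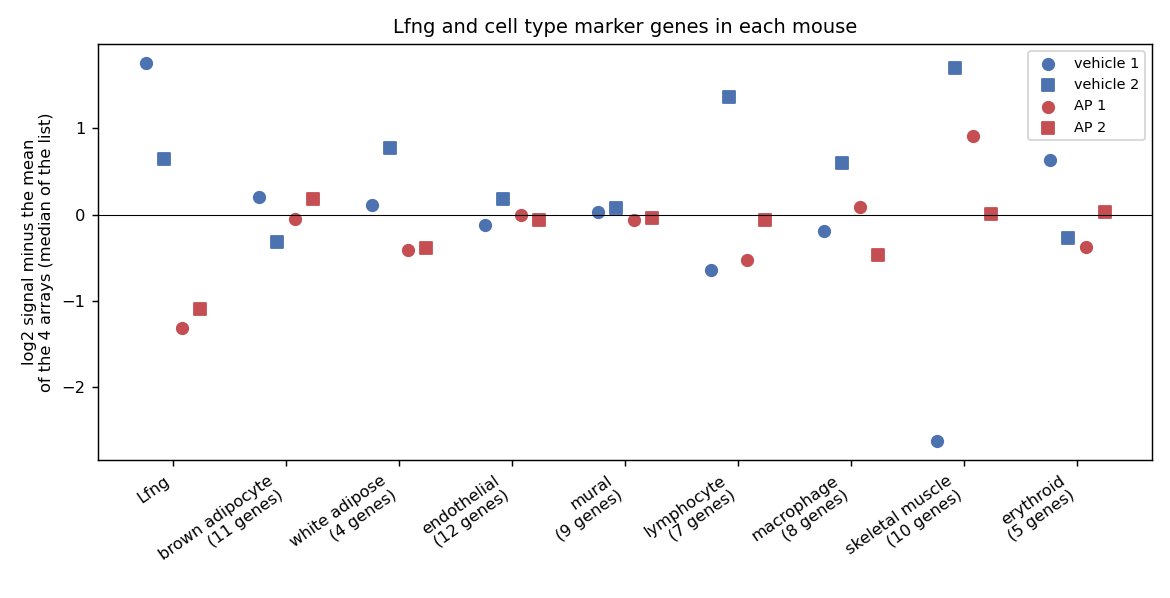
For each mouse the log2 signal minus the mean of the 4 arrays is shown for Lfng and, as the median over genes, for each list of cell type markers, with circles for mouse 1 and squares for mouse 2 of each group. Lfng separates vehicle (1.76 and 0.65) from AP (-1.32 and -1.09), whereas the lymphocyte and muscle medians are high in vehicle mouse 2. The white adipose median is lower in both AP mice, although the groups overlap for 2 of its 4 genes.

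Across 12 alternative ways of processing the data or of leaving out a mouse, the log2 fold change of Lfng stayed below 0, from -2.97 to -1.28. Most of these could not change its sign. The Lfng groups did not overlap, so leaving out 1 mouse kept the sign. The filters, the replicate block and the mean of all probes left its value at -2.41 by their design. The constant sign of Lfng is therefore a description and no support. Mfng, Notch4 and Hey1 also stayed below 0 in all 12, from -0.5 to -0.021, from -0.64 to -0.097 and from -0.54 to -0.065. Rfng, Notch1, Notch2 and Jag1 changed sign in 3, 3, 4 and 3 of the 12, Dll4 in 1 of 12, and Hes1 in 1 of 11.

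**Figure D4:**
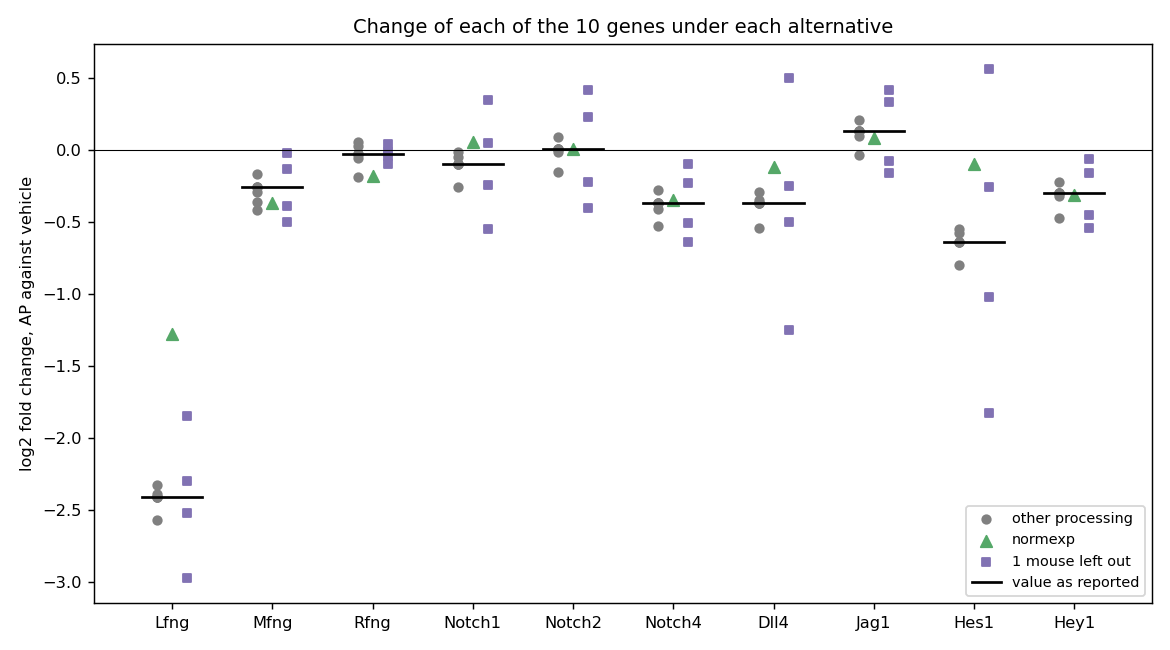
The vertical axis gives the log2 fold change of AP against vehicle for each of the 10 genes, with a line for the value reported, circles for other processing, a triangle for normexp and squares for each mouse left out in turn. All Lfng values lie between -2.97 and -1.28, and the values of Hes1 and Dll4 spread across 0 when a mouse is left out.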

How the data were processed

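RNA of each of the 4 mice was hybridized to its own one-color SurePrint G3 Mouse array. The authors extracted the scans with Agilent Feature Extraction (10.7.1.1 per the submitters' processing notes) and deposited the intensity of each spot on a linear scale, background-subtracted and not normalized between arrays. A second deposited file, made by the authors, gives log2 values in which each probe is centred. Differences between its arrays correlated with those of the intensities with r of at least 0.999 over 29061 probes, and the medians of its columns were -0.28 and -0.16 (vehicle) and -0.44 and -0.29 (AP). Its normalization and the value of its centring are not known, and it was used as an alternative.

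Here, each processed signal was put on the log2 scale and set against the 75th percentile of the non-control spots of its array. Outlier-flagged spots were left out, and spots of a probe were averaged. A probe was used where both mice of a group, or of each, had it well above background, which left 24973 of 55681. AP was compared with vehicle by limma 3.58.1 (lmFit, then eBayes, in R 4.3.3), with Benjamini-Hochberg adjustment over all kept probes and a threshold of 0.05. A run on simulated data with planted changes checked only that their mean size was recovered, and says nothing about error rates or power here. Precision is limited by the number of arrays. The labels do not say how the mice were kept, and the p values cover these mice only. The limma errors are moderated towards a variance shared by all kept probes, so they do not rest on a gene's own spread alone. Tle3, for example, had SDs of 0.034 (vehicle) and 0.018 (AP) but an SE of 0.2.

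Probes were named by accession through a RefSeq gene table (GRCm38.p6, 26582 probes, 20145 genes), and a gene was given by its brightest kept probe. The 10 genes, the pathway list, the markers and the motifs were chosen with earlier results of these data known. Named besides the 10 were pathway genes with a limma p under 0.05 before adjustment, the 3 highest and 3 lowest log2 fold changes among those well above background on all 4 arrays, the 5 genes nearest to Lfng, and the markers and ISR genes given. Alternatives were normexp (offset 50, on the median spot signal, since the mean is not used here), the median of each array, quantile normalization, other filters, a variance trend, the authors' table, a replicate block, each mouse left out, the methods' t-test and the mean of all probes. The replicate numbers are not stated to pair the mice.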

Additional observations from a re-analysis of the deposited data

How the results depend on the processing

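The number of probes called was 0 under each alternative run. For Lfng, normexp moved the log2 fold change from -2.41 to -1.28, which compresses dim signals by its offset, and leaving out 1 mouse gave -2.97 to -1.85. The number of other pathway genes under an unadjusted limma p of 0.05 was 4 of 56, beside 1515 of all 24973 kept probes. It was 2 with the authors' table, beside 1827 of 24868 probes, and 2 with a replicate block, beside 1226 of 24973. The total over all probes thus moved as well, and no pathway result is read from these counts. Cir1 and Tle3 were the genes lost with the authors' table and with the block, and the cause was not tested. The methods' t-test gave 3, Cir1, Ctbp2 and Tle3, without Gxylt2 and Neurl1b, beside 1478 of all 24973 kept probes. Without AP mouse 1, Gxylt2 and Neurl1b had log2 fold changes of 0.8 and 0.79. Without AP mouse 2 they had 1.48 and 1.46, and Nrarp had -1.75. The median log2 fold change of the other pathway genes moved from -0.0077 to 0.077 with the median of each array and to -0.17 with the authors' table. These scalings gave a median over all kept probes of 0.073 and -0.17. With 1 mouse left out the median of the other pathway genes was -0.049 to 0.073.

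The numbers were not taken to pair the mice, because no pairing is stated. Deviations of same-numbered mice had a correlation of -0.13, against 0.13 with the numbers crossed. With 2 mice per group these values are equal and opposite by construction, so they cannot decide on pairing. With the replicate block the smallest adjusted p was 0.921, and 1226 probes were under an unadjusted p of 0.05. With crossed numbers, added after seeing the data, 0 probes were called, 1566 were under an unadjusted p of 0.05, and 3 other pathway genes were. A block for slide or scan was planned and not run, because all arrays shared 1 slide and 1 scan. Signal over background limits Hes1 and Nrarp, dim in AP mouse 1.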
